A study of Ovis aries with 18 samples.

Results

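This account covers 2 rows of the deposited small RNA tables: oar-miR-191, called miR-191 here, and 19_14400, a predicted locus listed with the seed of mouse miR-425-5p. They are all rows whose name or seed name carries the number of either miRNA, taken as a whole number. Each of the tables, for uterine vesicles and for endometrium, holds the same 2 members, out of 495 and 761 rows. Together the tables hold 768 different rows. The seed is the short 5′ stretch of a miRNA that pairs with its targets. A shared seed is not proof of identity, so 19_14400 is called the miR-425-seed row. Each miRNA has 1 row per table, and 0 rows carry a 3p arm of either miRNA, so the arms of a hairpin could not be compared.

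The libraries came from ovariectomized ewes (Ovis aries), which lack ovarian hormones of their own. Ewes of the P4+RU486 group were injected each day for 14 days with 50 mg of progesterone (P4), to which 50 mg of RU486 was added on days 8 to 14. Ewes of the P4 group were given that progesterone alone. RU486, or mifepristone, blocks the progesterone receptor. Extracellular vesicles, membrane particles that cells release, were flushed from the uterine lumen with 10 ml of saline and isolated by size exclusion (4 libraries of each treatment). Endometrium, the lining of the uterus, was dissected from the same experiment (5 libraries of each treatment). Neither table has a control without progesterone. The labels used here give no breed or age.

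miR-191 and miR-425 lie close together on the genome in human and mouse, in an intron of the DALRD3 gene, and are made from a shared primary transcript. A shared transcript does not fix equal levels of the mature miRNAs, since processing and decay act on each. In sheep, RefSeq lists MIR191 on chromosome 19 next to NDUFAF3 and DALRD3 (assembly ARS-UI_Ramb_v3.0, not the build of these files). Only the order of entries was read, so whether MIR191 lies inside DALRD3 was not checked. No MIR425 entry was among the neighbours read. miR-191 is found in many tissues and is often used as a reference small RNA for normalizing PCR data. In human breast cancer cells the cluster has been reported to respond to oestrogen receptor alpha.

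The vesicle libraries are called R01 to R04 (P4+RU486) and P01 to P04 (P4), as their columns are named. They held 101186 to 328453 reads in listed rows in P4+RU486 and 97202 to 1062646 in P4. P01, P04 and R04 were the shallowest, and P01 stood apart in its scaling factor, 1.31 against 0.856 to 1.07 in the other libraries. Rows with names or seeds of epithelial miRNAs (the miR-200 family) held 0.992% to 1.56% of the reads in P4+RU486 libraries and 0.932% to 2.59% in P4 libraries, with 0 rows named for miR-141 or miR-429. Leukocyte rows held 0.216% to 0.495% and 0.215% to 1.94%, and the single erythroid row, with the miR-486 seed, 0.175% to 0.553% and 0.0262% to 0.791%. Smooth muscle and stromal rows held 1.05% to 1.47% and 1.08% to 1.84%, and liver or plasma rows 0.00988% to 0.0131% and 0.0143% to 0.0576%. The liver or plasma list held 2 rows that went opposite ways. The log2 difference, P4+RU486 minus P4, was -1.82 for 19_14926, with the miR-885 seed, and 0.14 for miR-194. Of the 4 leukocyte rows, 3 were below 0, with miR-150 at -1.11, and the row with the miR-142b seed was at 2.28. No row of these lists passed the treatment test given below. No row was named for miR-451, miR-144, miR-223 or miR-122. The part of these cells in the levels below was not tested. More vesicles of a cell type and more miRNA per vesicle cannot be told apart in such libraries.

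miR-191 was among the most abundant vesicle miRNAs under both treatments. Its normalized CPM, which are reads scaled by the authors to an adjusted library size, were 27067 in R01, 22092 in R02, 25902 in R03 and 21340 in R04. In P4 they were 18440 in P01, 36950 in P02, 38577 in P03 and 24356 in P04. The P4 libraries P02 and P03 were above all others, the P4 library P01 was the lowest of all 8, and the treatments overlapped. These values rest on 2044 to 7056 reads in P4+RU486 and 2347 to 35105 in P4, so counting error was small beside the differences between libraries.

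**Figure D1:**
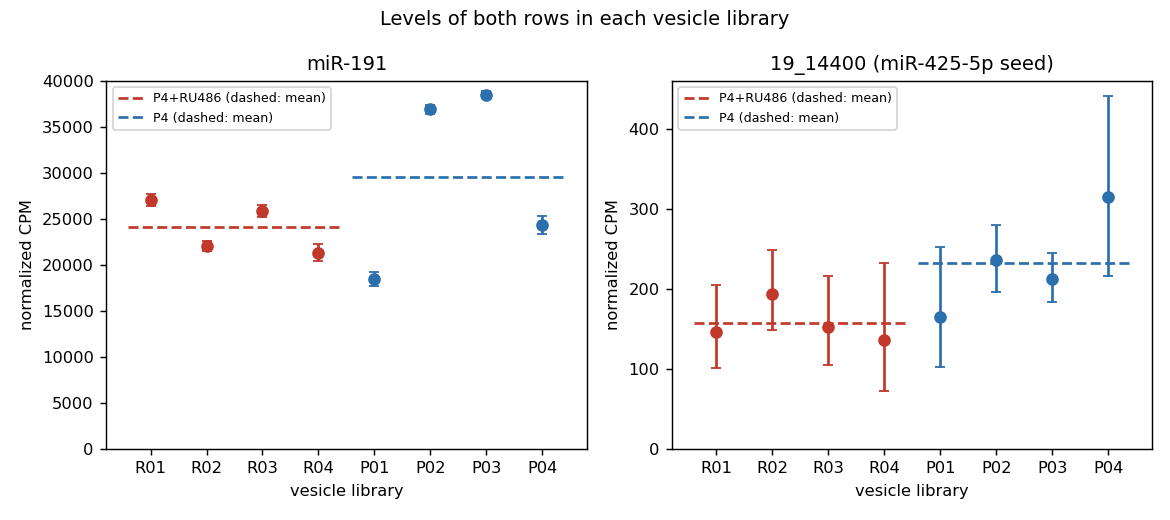
Levels of miR-191 (left panel) and of the miR-425-seed row 19_14400 (right panel) in normalized CPM in each vesicle library, P4+RU486 in red and P4 in blue, with exact 95% Poisson intervals for counting error as bars and the mean of each treatment as a dashed line. For miR-191, P02 and P03 stand at 36950 and 38577, above every P4+RU486 library, while P01 stands at 18440, below them; for 19_14400, 15 of 16 pairs of libraries have the lower value in P4+RU486.

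With the mean over libraries as the order, miR-191 held place 7 of 495 rows. Its place within a library was 7 to 10 in P4+RU486 and 6 to 8 in P4. Directly above it stood 10_3805 and X_35741, which carry the seed of miR-92a and have identical values. They averaged 54066 ± 6104 normalized CPM (SD, n = 4) in P4+RU486 and 61122 ± 12508 (SD, n = 4) in P4, and miR-191 was below them in 8 of 8 libraries, by 1.13 on the log2 scale (exact sign-flip permutation p = 0.00781, the smallest that 8 libraries can give, and 0.0156 adjusted over 4 comparisons). Below it stood miR-148a, a miRNA known to be abundant in liver. miR-191 exceeded it in 4 of 8 libraries, with a mean log2 difference of 0.16, which was within the spread (exact sign-flip permutation p = 0.469 adjusted over the same comparisons). miR-30a-5p came next and was lower than miR-191 in 7 of 8 libraries, by 0.40 on the log2 scale (exact sign-flip permutation p = 0.0312 adjusted). These neighbours were chosen by their mean over the same 8 libraries, so the choice largely set the direction of each difference. The p-values are therefore no separate evidence of order. 10_3805 and X_35741 entered the adjustment as separate comparisons despite identical values. Small RNA reads cover a whole mature miRNA, so no scaling by length was made. How well each sequence was ligated and amplified was not measured.

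The miR-425-seed row was far less abundant. It had 147 normalized CPM in R01, 194 in R02, 153 in R03 and 136 in R04. In P4 it had 165 in P01, 236 in P02, 213 in P03 and 315 in P04. The only overlap between treatments was R02, which was above P01 and below the 3 other P4 libraries. Reads numbered 13 to 62 in P4+RU486 and 21 to 194 in P4. In R04, with 13 reads, the exact 95% Poisson interval for counting error alone ran from 72.3 to 232 normalized CPM, and in P04, with 33 reads, from 217 to 442. The row held place 107 of 495 on the mean, 109 to 112 within P4+RU486 libraries and 96 to 112 within P4 libraries.

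The treatment comparison asked whether adding RU486 to progesterone changed the level of either row in vesicles. No change passed the test for either. miR-191 averaged 24100 ± 2811 normalized CPM (SD, n = 4) in P4+RU486 and 29581 ± 9775 (SD, n = 4) in P4, a ratio of 0.815. On the log2(value + 1) scale the difference was -0.24 (SE 0.25, 95% interval -0.79 to 0.31, limma adjusted p = 0.774). The miR-425-seed row averaged 157 ± 25.5 (SD, n = 4) in P4+RU486 and 232 ± 62.5 (SD, n = 4) in P4, a ratio of 0.678. Its log2 difference was -0.53 (SE 0.33, 95% interval -1.25 to 0.18, limma adjusted p = 0.494). The p-values were adjusted over the 229 rows that averaged 10 normalized CPM or more. Of these rows 0.437% passed (1 row, neither of the members), 33 had an unadjusted p under 0.05, and in 10.0% the P4+RU486 and P4 libraries were fully apart. The interval of miR-191 includes a fall by 0.79 on the log2 scale, so a decrease of that size is not excluded by 4 libraries per treatment.

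The size of the miR-191 difference depended on single P4 libraries. It was -0.09 without P03 and -0.11 without P02, the high libraries, and -0.44 without P01, the low one. Without P01, P04 and R04 together it was -0.60 (SE 0.19, 95% interval -1.06 to -0.13), and with 5 libraries left the limma adjusted p was 0.275. For the miR-425-seed row the difference ran from -0.68 without P01 to -0.37 without P04. Both rows were below 0 in each of the 19 alternative settings, and neither passed in any.

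**Figure D2:**
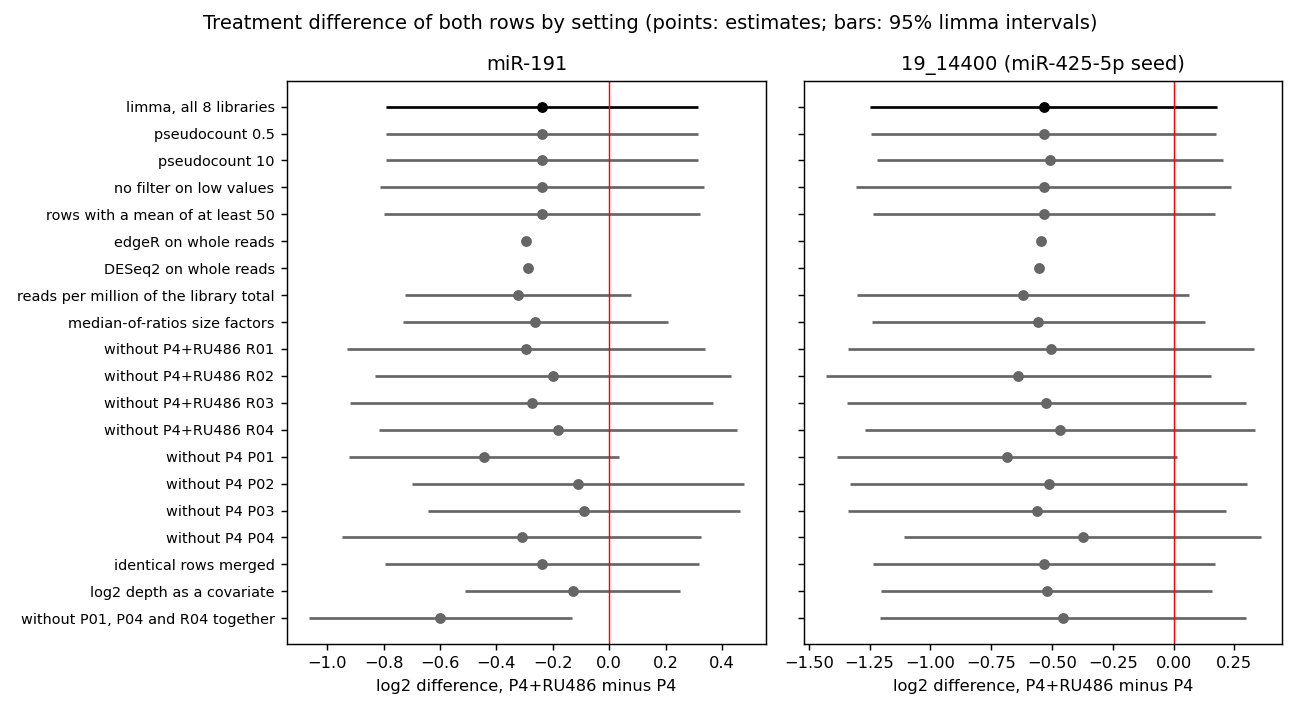
Difference of miR-191 (left panel) and of the miR-425-seed row 19_14400 (right panel) between P4+RU486 and P4 on the log2 scale, for the limma test on all 8 libraries (top, black) and the alternative settings below it, with 95% limma intervals as bars (no interval was computed for edgeR and DESeq2) and the red line at 0. All points lie left of 0, from -0.60 to -0.09 for miR-191 and from -0.68 to -0.37 for 19_14400, and 1 interval, that of miR-191 without P01, P04 and R04, does not cross the line.

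Shares of the listed reads do not use the scaling between libraries. miR-191 took 2.57% of the reads in R01, 2.15% in R02, 2.64% in R03 and 2.02% in R04. In P4 it took 2.41% in P01, 3.45% in P02, 3.30% in P03 and 2.62% in P04. By share, P01 was above R02 and R04. In normalized CPM, where its scaling factor of 1.31 enters, P01 was the lowest of all 8. Of 16 pairs of libraries, 13 had the lower share in P4+RU486, and the ranges overlapped. The mean share was 2.34% ± 0.305 (SD, n = 4) in P4+RU486 and 2.95% ± 0.508 (SD, n = 4) in P4. The difference of -0.603 percentage points had a 95% interval of -1.42 to 0.217, from inverting the exact test, and did not pass (two-sided exact permutation p = 0.143, 0.191 adjusted over 4 tests of shares and ratio).

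The share of the miR-425-seed row was 0.0153% ± 0.00263 (SD, n = 4) in P4+RU486 and 0.0239% ± 0.00680 (SD, n = 4) in P4, lower in P4+RU486 in 15 of 16 pairs of libraries. The 95% Wilson intervals of its share ran from 0.00751% to 0.0220% in R04 and from 0.0241% to 0.0475% in P04. The difference of -0.00863 percentage points had a 95% interval of -0.0209 to 0.000575 (exact permutation p = 0.0571, 0.191 adjusted). The smallest p that 4 against 4 libraries allow is 0.0286. That value was reached without P03 and when the most abundant row was left out of the total, both before adjustment. P03, at 0.0183%, was the only P4 library below R02, the highest of P4+RU486 at 0.0189%. Leaving P03 out therefore set the treatments fully apart by choice, and the p without it is no separate evidence. Both rows together held 2.36% ± 0.305 (SD, n = 4) in P4+RU486 and 2.97% ± 0.505 (SD, n = 4) in P4, a sum that is nearly all miR-191.

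The number of miR-191 reads per read of the miR-425-seed row is a ratio within a library, so it does not change with scaling. It was 185 in R01, 114 in R02, 169 in R03 and 157 in R04. In P4 it was 112 in P01, 157 in P02, 181 in P03 and 77.4 in P04. P04 was the lowest of all 8 and R01 the highest, and the treatments overlapped across most of their range. The 95% Wilson interval of P04, 55.0 to 109, lay below those of P02 (132 to 187) and P03 (157 to 208), so P4 libraries differed among themselves beyond counting error.

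The mean log2 ratio was 7.26 ± 0.30 (SD, n = 4) in P4+RU486 and 6.96 ± 0.55 (SD, n = 4) in P4. The difference of 0.29 had a 95% interval from -0.67 to 1.24 and did not pass (exact permutation p = 0.343). Without P01, P04 and R04 the sign turned, to -0.14. Across the 8 libraries the ratio spanned 2.38-fold, miR-191 itself 2.09-fold and the miR-425-seed row 2.31-fold.

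**Figure D3:**
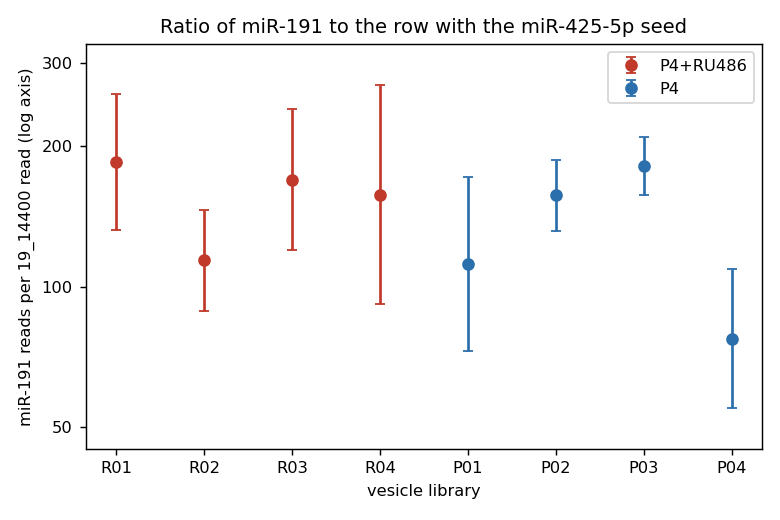
Reads of miR-191 per read of the miR-425-seed row 19_14400 in each vesicle library on a log axis, P4+RU486 in red and P4 in blue, with 95% Wilson intervals for counting error as bars. P4+RU486 libraries lie between 114 and 185 and P4 libraries between 77.4 and 181, and the interval of P04 does not reach those of P02 and P03.

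The levels of both rows showed no relation across libraries that passed a test. Over the 8 libraries, the log2 values had a Pearson r of 0.37 (exact permutation p = 0.362) and a Spearman rho of 0.36 (exact permutation p = 0.389). Without P02 and P03, the libraries farthest from the median of miR-191, r was 0.08 (n = 6). Taken as deviations from the mean of each treatment, r over the 8 libraries was 0.20. With 4 libraries per treatment, r was not computed in each treatment alone. In the order of likeness to miR-191, the miR-425-seed row held place 70 among the other tested rows, and miR-191 held place 50 in the order of likeness to the miR-425-seed row.

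In normalized CPM, miR-191 moved with the number of reads in a library by Pearson's r, but the rank relation did not pass after adjustment. Neither measure passed for its share of reads. Pearson's r between log2 reads and log2 normalized CPM was 0.86 (exact permutation p = 0.0058, 0.029 adjusted over 5 relations), and Spearman's rho was 0.81 (exact permutation p = 0.0218, 0.109 adjusted). For the share of reads, r was 0.74 (exact permutation p = 0.096 adjusted) and rho 0.52 (exact permutation p = 0.328 adjusted). Without P02 and P03, which are also the deepest libraries, r was 0.49 (n = 6) for normalized CPM and 0.01 for the share. These libraries are also the highest in miR-191, so a smaller r without them follows in part from the choice. With 6 libraries left, the relation was not tested again. For the miR-425-seed row r was 0.20 (exact permutation p = 0.626). With log2 depth as a covariate, the treatment difference of miR-191 was -0.13 and that of the miR-425-seed row -0.52. The part of depth in the level of miR-191 was not tested further.

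The rows whose pattern over the 8 libraries was most like that of miR-191 were 2 rows with the seed of miR-361, X_36407 and X_36408, with Pearson r of 0.98 each. X_36207, with the seed of miR-532, had an r of 0.97. 2_17077, with the seed of miR-31, a miRNA known from epithelia, had an r of 0.92, and 9_34222, with the seed of miR-151-5p, 0.89. These are descriptions of 8 libraries that share depth and scaling. In the plot of row patterns, these rows share with miR-191 the high values in P02 and P03 and the low value in P01. They were less abundant: X_36407 averaged 463 normalized CPM in P4+RU486 and 665 in P4, and 2_17077 averaged 4863 in P4+RU486 and 6100 in P4.

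Other rows were most like the miR-425-seed row. X_35722, with the seed of miR-16b, had a Pearson r of 0.94. X_36142, with the seed of miR-221, had an r of 0.80 and miR-221 itself, which restrains the receptor KIT, 0.79. 10_3599, with the seed of miR-2284g, had an r of 0.79, and miR-19b, of the growth-linked miR-17-92 cluster, 0.77. X_35722 averaged 19.9 normalized CPM in P4+RU486 and 62.3 in P4, X_36142 2120 in P4+RU486 and 3539 in P4, and miR-221 986 in P4+RU486 and 1533 in P4. All 5 rows missed the threshold, with limma adjusted p-values of 0.285 to 0.729. The r of 10_3599 was 0.55 without P04 and 0.93 without R02.

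**Figure D4:**
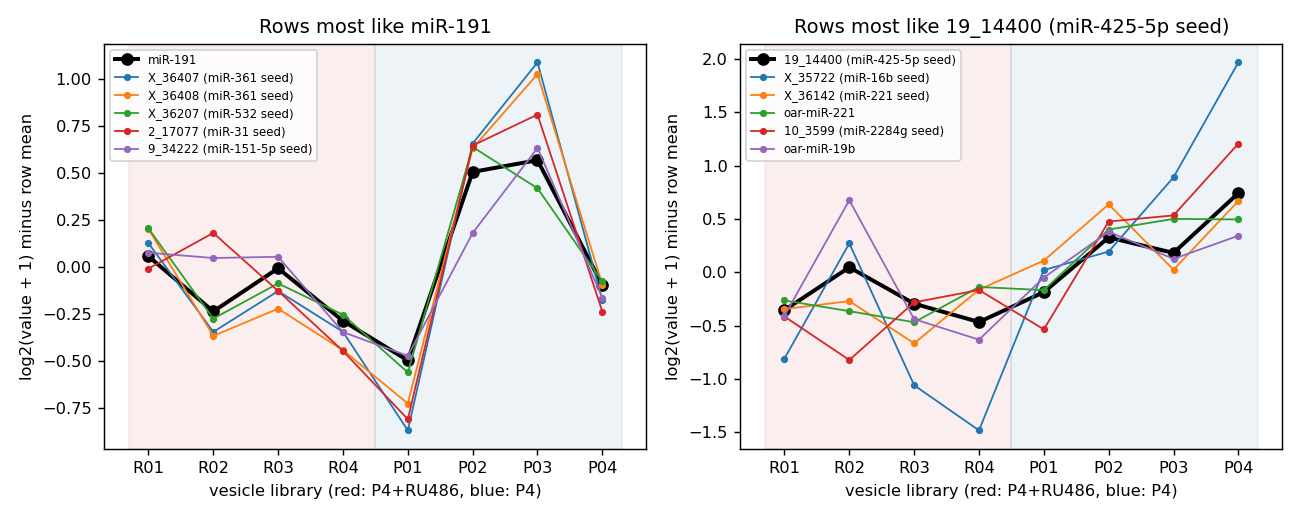
Log2(value + 1) minus the mean of the row over 8 vesicle libraries, for miR-191 and the 5 rows most like it (left panel) and for the miR-425-seed row 19_14400 and the 5 rows most like it (right panel), with P4+RU486 libraries on red and P4 libraries on blue ground. Lines only join the points of a row; the left panel shows high values in P02 and P03 and low values in P01, and the right panel the highest values in P04 for 4 of its 6 rows.

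As miR-191 often serves as a reference small RNA, its spread was set beside that of the other rows. The SD of its log2 values within treatments was 0.38, with 0.17 in P4+RU486 and 0.51 in P4. Of the 229 rows tested, 50 had a smaller SD within treatments, and the median row had 0.66. Low rows vary more by counting error alone, so rows of like abundance are the closer comparison. Of the 64 rows averaging 1000 normalized CPM or more, 35 had a smaller SD than miR-191, with a median of 0.37. Of the 20 rows nearest to it in abundance, 14 had a smaller SD. The miR-425-seed row had an SD of 0.31, and 2 of its 20 nearest rows had a smaller one. Among the 229 rows it held place 31 by SD, against 43 with library totals and 38 with median-of-ratios factors. Without P03 its place was 50, and without P04 it was 10. How much of its SD is counting error was not tested.

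That place of miR-191 depended on the scaling. With library totals as the scaling, its SD was 0.22, and it held place 12 among the 64 abundant rows, against 36 with the deposited values and 29 with median-of-ratios factors. Without P01, P04 and R04 its SD was 0.13. miR-25, of the same list of reference miRNAs and of the miR-106b-25 cluster, had an SD of 0.11 within treatments, the smallest of the 229 rows with the deposited values. It held place 11 with library totals and place 2 with median-of-ratios factors, and was chosen here after its values were seen. miR-103, another common reference, had an SD of 0.41.

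**Figure D5:**
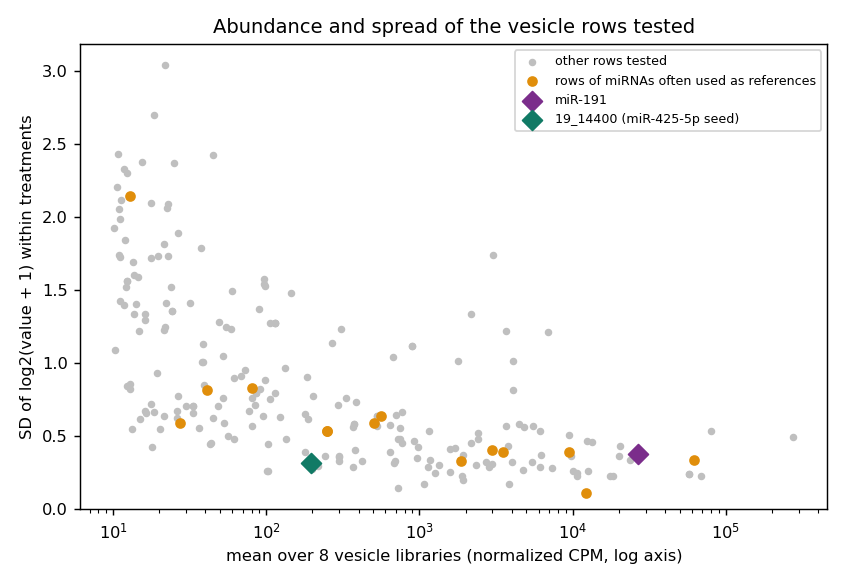
SD of log2(value + 1) within treatments against the mean over 8 vesicle libraries (log axis) for the 229 rows tested, with miR-191 and the miR-425-seed row 19_14400 as diamonds. Rows matched by name or seed to miRNAs often used as references are in orange. miR-191, at 0.38, lies among rows of like abundance, and 19_14400, at 0.31, lies at the low edge of its range of abundance, while miR-25 is the orange point at 0.11.

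Of the list of miRNAs often used as references, 17 vesicle rows were found by name or seed and 15 were tested, miR-191 among them. None passed in either direction. The log2 difference was below 0 in 12 of the 15, with a median of -0.20, beside 111 of 229 and a median of 0.04 over all rows tested. The 12 include 5_28971 and 2_16698, with the miR-24-3p seed, which have identical values and may hold 1 signal. They also include miR-191 and X_36407 and X_36408, with the miR-361 seed, whose patterns followed miR-191 (Pearson r of 0.98 each). Of the rows tested, X_35722, 1_3299, 10_4035, 11_5611 and oar-miR-16b all carry the miR-16b name or seed. The 12 are therefore not separate results. No row with reads was named for miR-16, miR-16a or miR-93. With library totals 12 were below 0 (median -0.29), and with median-of-ratios factors also 12 (median -0.23). Rows found by seed alone may be other miRNAs that share the seed, so these counts need not be of the listed references only. The lowest was X_35722, listed only by its miR-16b seed, at -1.54 (SE 0.61, limma adjusted p = 0.299). The highest was miR-103, encoded in introns of pantothenate kinase genes, at 0.82 (SE 0.29, limma adjusted p = 0.285), which passed with depth as a covariate (0.94, limma adjusted p = 0.0346).

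Of a list of miRNAs linked elsewhere to steroid hormones or hormone-driven tumours, 6 rows were found and 5 tested, and none passed. Of the 5, 4 were below 0, with a median of -0.40, beside 111 of 229 and a median of 0.04 over all rows tested. The 4 include miR-221 and X_36142, which carries its seed. With library totals 4 were below 0 (median -0.48), and with median-of-ratios factors also 4 (median -0.42). The lowest was X_36142, with the miR-221 seed, at -0.72 (SE 0.25, limma adjusted p = 0.285), and the highest was miR-21, at 0.10 (SE 0.29, limma adjusted p = 0.913), with a sign that turned without P01.

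In the endometrium, the authors' deposited table gives both members a fold close to 1. The authors' deposited table lists miR-191 at 1.01-fold (adjusted p = 0.992). For the miR-425-seed row the authors' deposited table lists 1.06-fold (adjusted p = 0.953). Which treatment is the numerator there is not stated, so the direction is unknown. By absolute size, 38 of 761 rows (4.99%) of the authors' deposited table have a fold at or below that of miR-191, and 136 (17.9%) at or below that of the miR-425-seed row, with a median over rows of 1.25. Of the endometrium rows, 1.18% had an adjusted p under 0.05 in the authors' deposited table, neither member among them.

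In vesicles, the authors' deposited table gives miR-191 a fold of 1.23 and the miR-425-seed row 1.46. The header of that table does not name the numerator. Both members average higher in P4, and over the 307 rows with reads under both treatments and an absolute fold above 1.1 in the authors' deposited table, 269 have a positive fold with the higher mean in P4 or a negative fold with the higher mean in P4+RU486. From these values the folds were read as P4 over P4+RU486. The adjusted p-values in the authors' deposited table are 1 and 0.83, and 1.82% of its rows had one under 0.05. By absolute size, 24.8% of the 495 vesicle rows in the authors' deposited table have a fold at or below that of miR-191 and 42.2% at or below that of the miR-425-seed row. Whether the response in vesicles differed from that in tissue was not tested. The names of the per-library endometrium columns match no label, which prevented a comparison of treatments from them. Those columns were left out altogether. The level of either row in endometrium, and their ratio there, was therefore not computed, even over both treatments together. The tissue was not checked against its markers either.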

How the data were processed

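Small RNA was sequenced from 8 vesicle and 10 endometrium libraries. The submitters' processing notes name cutadapt 1.11, genome build Oar_v3.1 and edgeR; the aligner, locus prediction and filters are unnamed in the sources used here. Per the file headers and the numbers themselves, the vesicle columns deposited hold a signal, CPM of an edgeR-adjusted library size. All values (100%) were whole multiples of 1 step per library (tolerance 0.1 read), so reads were recovered; 1 read is worth 1.10 to 10.4 normalized CPM. TMM factors computed from them matched the deposited scaling within 1.98e-06. A count of 0 allows up to 3 reads (3.30 to 31.3 normalized CPM). Intervals and floors cover counting error only. The deposited signed fold changes are a score by the authors, with a fold under 1 written as minus its inverse, and come with the authors' adjusted p-value. The vesicle columns give the treatment by initial letter and not the ewe. The 10 per-library endometrium columns match no label and were not used.

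limma 3.58.1 (trend, R 4.3.3) was run on log2(value + 1) over all rows averaging 10 or more, with Benjamini-Hochberg adjustment, a threshold of 0.05 and differences taken as P4+RU486 minus P4. Folds on this scale understate changes of low rows. edgeR 4.0.16 and DESeq2 1.42.0 on the recovered reads were alternatives, on which edgeR called 1 row and DESeq2 5. The fitting code was tested on simulated data. Shares, ratios and places were compared by exact permutation tests. Named beside the members were the 5 rows most alike by Pearson r, the 2 neighbours on each side of miR-191 in mean level, and the highest and lowest rows of each list. Lists were matched by name or seed name, with lettered forms (such as miR-16b). Rows with identical values (164 of 495, no member among them) may hold 1 signal. The members and lists were chosen with earlier results of these data known.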

Additional observations from a re-analysis of the deposited data

Results flagged for a closer look

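No sample of either member, of their ratio or of their shares stood far from the others of its group by Dixon's gap test at 4 libraries. Of the 40 groups tested, those of the members included, 3 were flagged, where chance flags about 1 in 20. All 3 belong to rows named beside the members, so the rate among those rows alone is higher. miR-148a, next below miR-191 in level, had 31382 normalized CPM in R02, against 21977 to 22724 in the other P4+RU486 libraries, a gap of 0.921 of the range of that group. 9_34222, with the miR-151-5p seed, had 7444 in R04, against 9781 to 9976 in the others (gap 0.923). miR-19b had 157 in R02, against 62.6 to 73.3 in the others (gap 0.886).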

How the results depend on the processing

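The log2 differences of both members kept their sign and stayed short of the threshold in all 19 alternatives, from -0.60 to -0.09 for miR-191 (adjusted p 0.275 to 0.943) and from -0.68 to -0.37 for the miR-425-seed row (0.315 to 0.789). With 1 library left out they ran from -0.44 to -0.09 and from -0.68 to -0.37. The number of vesicle rows called, 1 with limma, was 5 with DESeq2 on whole reads, 6 with depth as a covariate and 0 to 2 with 1 library left out (0 without R01, R03, R04 or P04, 2 without P02). Before adjustment, the share of the miR-425-seed row passed without P03 (-0.0105 percentage points, exact permutation p = 0.0286). P03 was the only P4 library whose share overlapped P4+RU486, so its removal fixed that p. Also before adjustment, the share passed with the most abundant row out of the total (-0.0106, exact permutation p = 0.0286). Its difference ran from -0.0105 to -0.00533 with 1 library left out. The share of miR-191 ran from -0.781 to -0.435 and that of both rows from -0.790 to -0.444. The log2 ratio ran from 0.06 to 0.47 with 1 library left out and turned to -0.14 without P01, P04 and R04, an alternative chosen after seeing the data. The cause was not tested. For miR-21 the log2 difference lay between -0.20 and 0.26 when single libraries were dropped, with the sign turned by dropping P01, and was -0.34 without those 3 libraries. Of 262 further values for 23 results, 239 were labelled unchanged. For differences and for the correlation of the members, that label means the same sign and side of the threshold, not a close value. The correlation of the members, for example, was 0.37 with all libraries and 0.67 without P04. For places by spread and for likeness to other rows, the label set a limit on the shift. No paired analysis was possible because the vesicle columns carry no ewe number and the treatments were given to different ewes. Endometrium alternatives were not run, as its columns could not be tied to treatments. At 13 to 62 reads per P4+RU486 library, counting error limits every statement on the miR-425-seed row.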
